A study of Homo sapiens with 24 samples.

Results

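Canonical histone genes encode the histones that package newly copied DNA, and 40 of the 14119 genes in the deposited expression table carry their symbols. They were taken as every row whose symbol begins with HIST1H, HIST2H, HIST3H or HIST4H, with no use of expression values. By symbol, the 40 genes comprise 2 for the linker histone H1, 8 for H2A, 14 for H2B, 7 for H3 and 9 for H4. HIST2H2BC, a transcribed pseudogene in RefSeq, is counted with the H2B genes and in the summed levels throughout. By cluster, 26 lie in HIST1 on chromosome 6, 11 in HIST2 and 2 in HIST3 on chromosome 1, and HIST4H4 lies on chromosome 12. GENCODE release 29 annotates 71 protein-coding genes with such symbols, and those without a row in the table were not analysed here.

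The RNA was taken from tumours that COLO320DM cells, an established line from a human colorectal adenocarcinoma, formed as xenografts. Every tumour carried a hairpin, labelled shNT or sh1487, and each hairpin was present with or without a construct labelled cDNA. Mice received a doxycycline diet, the usual inducer of such hairpins, from a mean tumour size of 150 mm3, or no doxycycline, and tumours were taken on day 3 (72 h). This gives 8 groups of 3 libraries, 24 in all: shNT, sh1487, shNT with cDNA and sh1487 with cDNA, each with and without doxycycline. The labels do not name the target of sh1487 or the gene in the cDNA, nor do they give the strain or age of the mice, whether a line is a clone, or whether libraries of a group are separate tumours, so p-values measure the spread between these libraries, which may be technical.

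Most canonical histone messenger RNAs are made while DNA is replicated, and they end not in a poly(A) tail but in a short stem-loop. The stem-loop is bound by SLBP, and cleavage after it needs the U7 small nuclear ribonucleoprotein, of which LSM10 and LSM11 are subunits. Some of these genes also yield transcripts with a poly(A) tail, and the libraries described here were enriched for poly(A) RNA, so their values refer to transcripts that passed that enrichment. H2A and H2B pair as dimers and H3 and H4 form the tetramer at the centre of the nucleosome, while H1 binds the linker DNA between nucleosomes.

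Levels are given as CPM, here read counts scaled to an effective library size, so that the sums differ between libraries. Whole reads recovered from the CPM steps gave 44004848 to 80202279 reads per library, so that 3 reads corresponded to 0.0368 to 0.0711 CPM. Mitochondrially encoded genes took 9.98% to 21.5% of the reads, the highest share being in shNT with cDNA on doxycycline, replicate 3. CTNNB1, the gene for β-catenin, which the series title names, fell with doxycycline from 226 ± 10.4 to 43.3 ± 1.99 CPM in sh1487 (mean ± SD, n = 3), against 507 ± 41.3 and 594 ± 21.2 CPM in sh1487 with cDNA. The intestinal factor CDX2 averaged between 1007 and 1944 CPM by group, whereas group means of the epithelial markers EPCAM and CDH1 did not exceed 2.59 and 1.12 CPM. Of the 10 genes listed as epithelial markers, a list that includes MYC, 9 had rows. They summed to 5647 to 6256 CPM in sh1487 without doxycycline and to 3181.9 to 3234 CPM with it. Of the 8 tested, 5 rose and 3 fell there, beside 37.4% and 37.5% of all genes tested. Of 5 fibroblast markers, 3 had rows, and their summed level was 63.4 to 67.3 CPM in sh1487 without doxycycline and 36.1 to 39.9 CPM with it. PTPRC, the leukocyte marker with a row, ran from 42.8 to 47.2 and from 45.5 to 47.5 CPM in the same groups, and no endothelial marker had a row. The erythroid markers with rows, 2 of 3, summed to 12.7 to 13.4 CPM without and 6.99 to 9.44 CPM with doxycycline. Mitochondrial shares in these groups were 11.4% to 12.1% and 12.9% to 13.5%. Host cells of these xenografts are mouse cells and the genome used was human, so these rows cannot be read as measures of host cells. The part of other cells or of RNA quality in the results was not tested.

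The stem-loop was sought as GGNNCTTTNNAGNNCC (N, any base) on the sense strand in GENCODE release 29 transcripts, because its place relative to the transcript end separates the annotated histone transcripts. It was present in transcripts of 27 of the 39 members in that annotation, and in 100 of 19613 other protein-coding genes, or 0.51%. The 5 forms found are shown with 5 flanking bases on either side, capitals marking the 16 bases of the stem-loop.
HIST1H2BG: tcaaaGGCTCTTTTCAGAGCCactca
HIST1H2BD: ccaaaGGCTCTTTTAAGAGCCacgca
HIST1H2AG: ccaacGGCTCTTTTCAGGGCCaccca
HIST1H4H: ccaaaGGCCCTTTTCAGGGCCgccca
HIST2H4A: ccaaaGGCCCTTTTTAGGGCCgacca
The form of HIST1H2BG occurred in 16 members, none of them H4. The forms of HIST1H4H and HIST2H4A occurred in 4 and 3 members, all H4. The form of HIST1H2BD was found in 3 members, all H2B, and that of HIST1H2AG in no other member. In 19 members an annotated transcript ran more than 200 bases past the stem-loop, and in 8 the longest ended within 200 bases of it. The 12 without the stem-loop included 9 whose annotated model is the coding sequence alone.

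Promoters of 39 members were matched in RefSeq (GRCh38.p14), as 250 bases before to 50 after the start, and searched on both strands. CCAAT was present in all 13 H2B promoters matched, as in all 2 H1, 8 H2A and 7 H3 promoters. It was in 1 of 9 H4 promoters, and in 35.7% of 27305 promoters of the same length. The octamer ATTTGCAT occurred in 9 of 13 H2B and 4 of 8 H2A promoters, against 1.8% of all. TATAAA was found in 28 of the 39, against 12% of all, and overlapped none of the other motifs in the stretches printed. GGTCCG, chosen after the promoters had been read, occurred in all 9 H4 promoters and in 1 of 13 H2B promoters, against 11.2% of all. Below are the 100 bases before the start of 2 H2B genes that differed in response and of 2 H4 genes that differed in level, with these motifs in capitals.
HIST1H2BG, chr6:26216689-26216788, minus strand: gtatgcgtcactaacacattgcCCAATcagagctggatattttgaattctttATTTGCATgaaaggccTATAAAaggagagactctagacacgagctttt
HIST1H2BJ, chr6:27132796-27132895, minus strand: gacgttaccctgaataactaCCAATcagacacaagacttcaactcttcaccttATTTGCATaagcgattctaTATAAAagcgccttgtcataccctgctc
HIST2H4A, chr1:149832557-149832656, plus strand: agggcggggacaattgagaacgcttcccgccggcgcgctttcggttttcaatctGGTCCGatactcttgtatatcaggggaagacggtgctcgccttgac
HIST4H4, chr12:14771132-14771231, minus strand: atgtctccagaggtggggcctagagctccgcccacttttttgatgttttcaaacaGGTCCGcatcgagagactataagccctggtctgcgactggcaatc

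Several members have a near-identical copy. HIST2H3A and HIST2H3C had equal reads in 5 of 24 libraries and differed by at most 6 reads in the others. HIST2H4B lay 0.80% to 2.10% below HIST2H4A, and HIST2H2AA4 lay 24.5% to 39.5% above HIST2H2AA3. Values of these pairs may share reads and are uncertain. Counts of members called take each copy separately, so the calls of a pair are not independent. Opposite-strand exons overlap HIST1H2BE by 730 bases (AL353759.1), HIST1H2BN by 393 (HIST1H2AK), HIST2H2BF by 177 (FCGR1A), HIST2H2AB by 27 (BOLA1), and HIST2H3A and HIST2H3C by 173 each (HIST2H4B and HIST2H4A). The library kit marks strand, but the strand setting of the counting is not given in the sources used here.

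Levels spanned a wide range, with 17 members averaging above 10 CPM over the 24 libraries and 8 under 1 CPM. The highest means were those of the H4 copies HIST2H4A and HIST2H4B at 119.6 and 118 CPM, followed by the H2B gene HIST2H2BE at 112 CPM, HIST2H2BC at 44.6 CPM, and the H3 copies HIST2H3A and HIST2H3C at 30.7 CPM each. Of these, HIST2H2BC is the pseudogene named above. Per kilobase of gene model the order changed: HIST1H2BK came first at 78.2 CPM per kb, with HIST2H2BC at 77.0, HIST2H4A at 63.8 and HIST2H2BE at 49.5 CPM per kb. HIST1H2BK is among the members whose model is coding sequence alone, so the divisor is short.

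Doxycycline in sh1487 without cDNA was accompanied by higher poly(A) RNA from most canonical histone genes. Summed over 37 genes, with each copied pair counted once, the level was 403 ± 6.0 CPM without and 1448 ± 7.57 CPM with doxycycline (SD, n = 3), a ratio of 3.59. The test took genes that reached 1 CPM in 3 or more libraries, which 36 members did. Of these 31 rose, while 37.4% of the 13832 genes tested rose and 37.5% fell. The median log2 change of the members was 1.46, against 0.01 over all genes tested, where log2 changes are of CPM + 1 and calls rest on limma with Benjamini-Hochberg adjustment at 0.05. A change in the number of cells of a type and a change in RNA per cell cannot be told apart in these bulk tumours. Because 4 of the 36 (HIST1H2AE, HIST2H2AB, HIST1H2BO and HIST1H3A) passed the filter only through the induced sh1487 libraries, the count was also taken over the 32 that pass without those libraries, and 28 of them rose. No member fell, nor did any at an unadjusted p under 0.05 or with edgeR or DESeq2, where 31 rose with either tool.

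**Figure D1:**
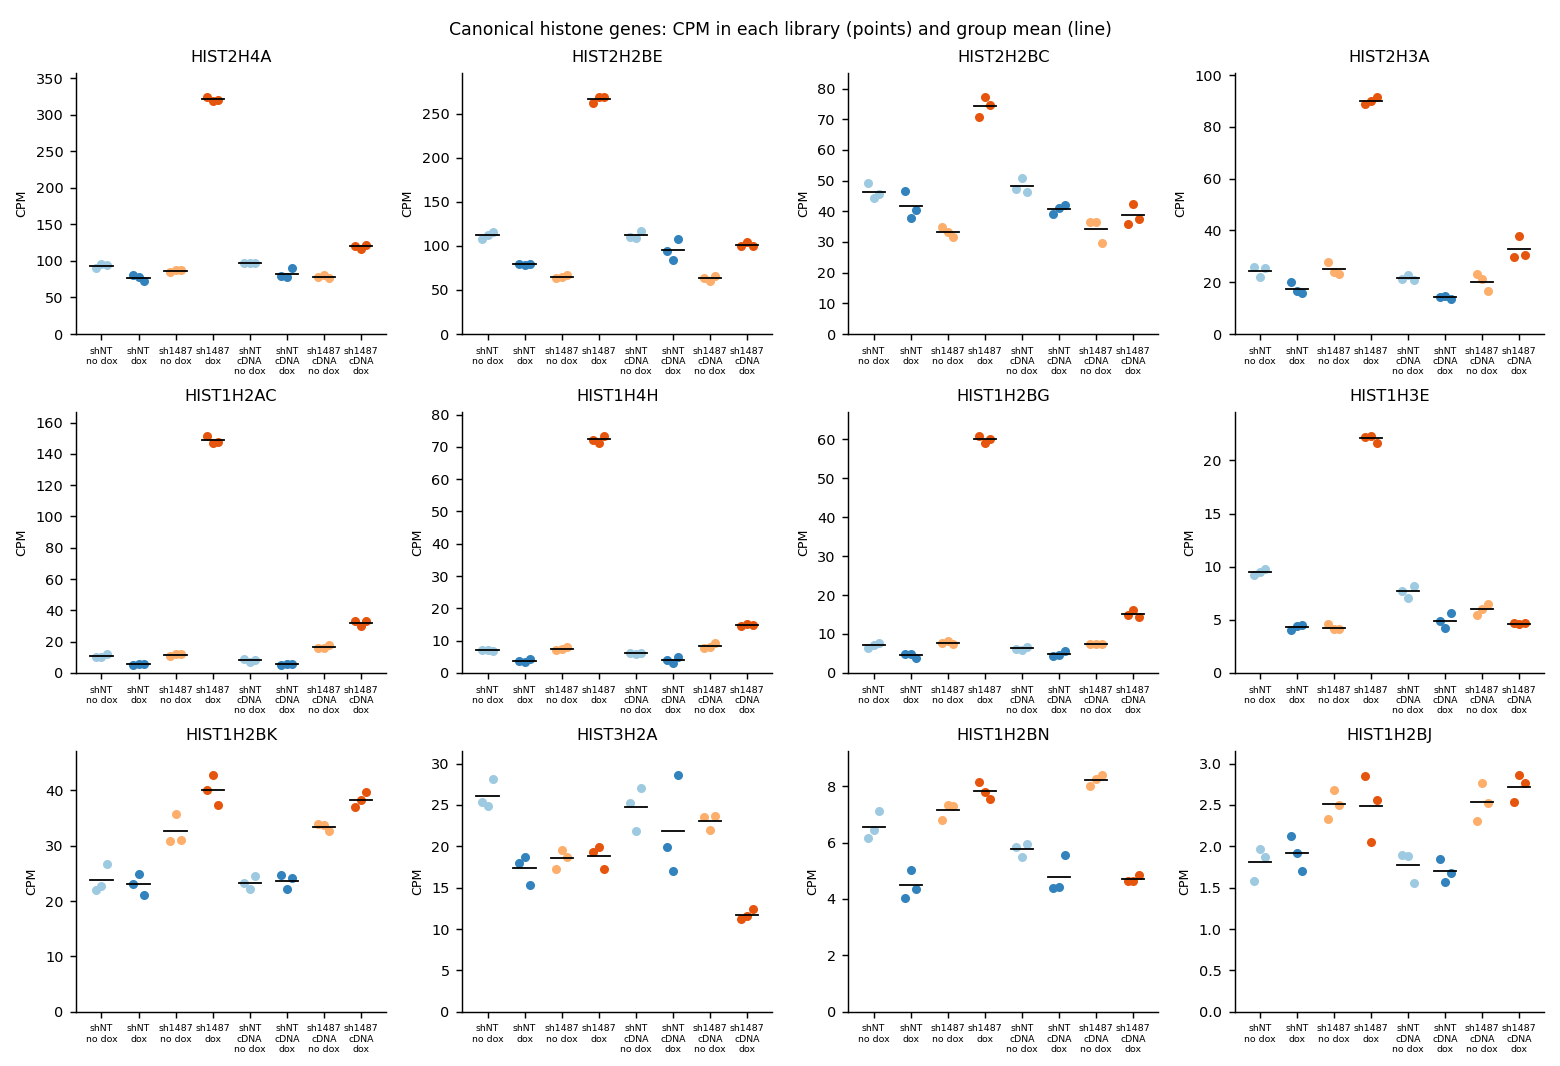
CPM of 12 canonical histone genes in each of the 24 libraries (points) with the group mean (line), by hairpin, cDNA and doxycycline. In 9 of the panels the induced sh1487 libraries are the highest group mean, and HIST3H2A, HIST1H2BN and HIST1H2BJ differ from that.

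Among H2A genes, 7 of 8 rose, including HIST1H2AE and HIST2H2AB, which passed the filter only through the induced sh1487 libraries. HIST1H2AC (chr6:26124145-26139116) changed most of all members. Its CPM was 10.6, 12 and 12.1 in the uninduced sh1487 libraries and 152, 147 and 148 in the induced ones, a log2 change of 3.58 ± 0.09 (SE; adjusted p = 1.42e-19). The induced libraries stood above every other library of the study, where HIST1H2AC did not exceed 33.0 CPM. HIST2H2AA3 went from 15.1 to 47.1 CPM and its copy HIST2H2AA4 from 20.9 to 65.1 CPM. HIST1H2AG rose by a smaller log2 change of 0.53, from 7.04 to 10.6 CPM. HIST3H2A, in the small chromosome 1 cluster, averaged 18.5 and 18.8 CPM and did not pass (log2 change 0.02 ± 0.12, adjusted p = 0.884).

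Of 13 H2B genes tested, 10 rose. HIST1H2BG held 7.66, 8.10 and 7.53 CPM without doxycycline and 60.9, 59.0 and 60.2 CPM with it, a log2 change of 2.80 ± 0.09 (adjusted p = 4.28e-18), and the groups did not overlap. HIST2H2BE, the H2B gene with the highest level, had 63.6, 65.0 and 66.5 CPM uninduced and 263, 269 and 269 CPM induced, a log2 change of 2.02 ± 0.07 (adjusted p = 1.17e-17). HIST2H2BC went from 34.8, 33.2 and 31.7 CPM to 70.7, 77.3 and 74.7 CPM, a log2 change of 1.14 ± 0.08 (adjusted p = 2.90e-11). These 3 genes had induced values wholly above the uninduced ones, and HIST2H2BC had the smallest ratio of means, 2.23. In this comparison 75% of all genes tested were called. Groups that do not overlap are described gene by gene, and their share among all genes tested was not counted. HIST1H2BD rose from 11.3 to 64.4 CPM and HIST1H2BF from 2.41 to 16 CPM. The H2B genes that did not pass were HIST1H2BJ at 2.51 and 2.49 CPM (log2 change -0.01 ± 0.09), HIST1H2BN at 7.14 and 7.82 CPM, and HIST1H2BO at 0.993 and 1.15 CPM. HIST1H2BJ carries the same 3 motifs in its promoter as HIST1H2BG, in the sequences printed above. Over the H2B genes with the octamer the median log2 change was 1.68, with 7 of 9 called, and over the 3 tested without it 0.73, with 2 called, which is a description with no test.

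All 6 H3 genes tested rose, though HIST1H3A passed the filter only through the induced sh1487 libraries. HIST2H3A had 27.9, 23.8 and 23.3 CPM uninduced and 88.8, 89.9 and 91.6 CPM induced, a log2 change of 1.81 ± 0.11 (adjusted p = 8.52e-13), and the copy HIST2H3C, at 27.9, 23.8 and 23.3 CPM and at 88.7, 89.9 and 91.5 CPM, the same change of 1.81. HIST1H3E, with 4.56, 4.09 and 4.14 CPM uninduced, reached 22.2, 22.3 and 21.7 CPM, a log2 change of 2.13 ± 0.08 (adjusted p = 6.74e-17). Neither gene's groups overlapped. HIST1H3H rose from 6.51 to 21.8 CPM, and HIST1H3A from 0.221 to 1.45 CPM.

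Of 8 H4 genes tested, 7 rose, led by HIST1H4H (chr6:26277609-26285638). Its CPM was 6.99, 7.32 and 7.93 uninduced and 72.2, 71.3 and 73.4 induced, a log2 change of 3.12 ± 0.10 (adjusted p = 5.84e-18). HIST2H4A, the member with the highest mean, had 85.3, 87.8 and 87.4 CPM uninduced and 324, 319 and 320 CPM induced, a log2 change of 1.87 ± 0.05 (adjusted p = 1.09e-18). In both genes the spread within a group was small beside the distance between groups. The copy HIST2H4B had 84.3, 86.5 and 86.3 CPM uninduced and 319.9, 314 and 316 CPM induced, the same log2 change of 1.87. HIST4H4, outside the large clusters, rose by 0.57 on the log2 scale, from 3.77 to 6.09 CPM. HIST1H4I did not pass at 12.8 and 14.9 CPM (log2 change 0.21 ± 0.11, adjusted p = 0.0949).

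The linker histone gene HIST1H1C rose from 10.8 ± 0.53 to 44.9 ± 1.26 CPM (SD, n = 3), a log2 change of 1.96. The 4 members that were not tested were low in both groups. HIST1H3B averaged 0.511 and 0.929 CPM, HIST1H2BL 0.637 and 0.882 CPM, HIST1H1E 0.355 and 1.03 CPM, and HIST1H4D 0.351 and 1.04 CPM, without and with doxycycline.

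Summed by subfamily, the ratio of induced to uninduced sh1487 was 4.29 for H2A, 4.13 for H1, 3.73 for H4, 3.71 for H3 and 3.23 for H2B. By cluster it was 4.17 for HIST1, 3.49 for HIST2, 1.62 for HIST4H4 and 1.12 for HIST3. All 11 HIST2 members rose, as did 18 of 22 HIST1 members tested. These counts take each copy of a pair separately. They include HIST2H2AB, HIST1H2AE and HIST1H3A, which passed the filter only through the induced sh1487 libraries. The HIST3 pair differed between its genes, with HIST3H2BB rising from 2.31 to 4.45 CPM beside the HIST3H2A values above.

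**Figure D2:**
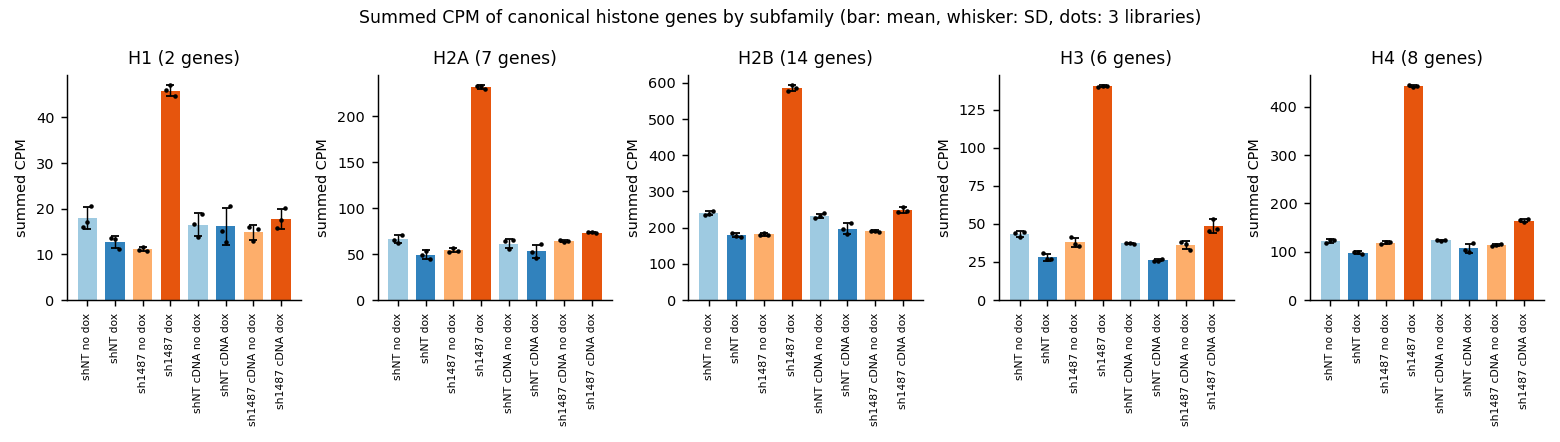
Summed CPM of the H1, H2A, H2B, H3 and H4 genes, with the copied pairs of H2A, H3 and H4 counted once, in the 8 groups (bar: mean, whisker: SD, dots: 3 libraries). The induced sh1487 bar without cDNA is the highest in each panel, at 3.23 to 4.29 times its uninduced group.

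Members were also described by the annotated end of their transcripts. The 19 with a transcript running more than 200 bases past the stem-loop had a median log2 change of 1.81, with 16 called. Among the 8 whose longest transcript ended within 200 bases of it, 7 were tested, all rose, and the median was 1.58. One of them, HIST1H2AE, passed the filter only through the induced sh1487 libraries. The members with coding-only models had a median of 1.00, with 6 of 7 called. HIST2H2AB, HIST1H2BO and HIST1H3A, among those tested, passed the filter only through the induced sh1487 libraries. Log2 changes of CPM + 1 understate changes of low genes, so the medians of these sets also depend on level. HIST1H3A, for example, had a ratio of means of 6.56. The sets were not tested against each other. The ranges overlapped widely, from 0.02 to 3.58 in the first set and from 1.07 to 2.41 in the second. Gene-level values do not show which transcript was read.

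Some H2A and H2B genes start back to back, within 300 bases of each other, and 5 such pairs were members. HIST1H2BC and HIST1H2AC, 218 bases apart, both rose, by log2 changes of 2.00 and 3.58. HIST1H2BG and HIST1H2AE, 282 bases apart, rose by 2.80 and 1.35. Their ratios of means were closer, 7.74 and 5.48, because log2 changes of CPM + 1 understate changes of low genes such as HIST1H2AE. HIST1H2AE passed the filter only through the induced sh1487 libraries. HIST1H2BJ and HIST1H2AG, 291 bases apart, gave -0.01, which did not pass, and 0.53, which did. HIST3H2A and HIST3H2BB, 233 bases apart, gave 0.02, which did not pass, and 0.73, which did. In the pair HIST1H2BL and HIST1H2AI, 267 bases apart, only HIST1H2AI had enough reads for the test, with 1.07. The partners of a pair were not tested against each other.

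Doxycycline in the shNT line without cDNA went with lower histone levels. The summed level of the 37 genes was 489 ± 15.8 CPM without and 368 ± 14.1 CPM with doxycycline, a ratio of 0.751. Of 36 members, 23 fell, where 18.7% of all genes tested fell, and the median log2 change was -0.33 against -0.01 over all genes tested. Over the 32 members that pass the filter without the induced sh1487 libraries, 22 fell. No member rose, beside 18.5% of all genes tested, nor did any at an unadjusted p under 0.05 or with edgeR or DESeq2. HIST1H3E fell most, from 9.20, 9.51 and 9.77 CPM to 4.08, 4.46 and 4.53 CPM, a log2 change of -0.97 ± 0.08 (adjusted p = 2.98e-09). HIST1H2AC fell from 9.98, 10.2 and 12.3 CPM to 4.73, 5.73 and 5.87 CPM, a log2 change of -0.88 ± 0.09 (adjusted p = 1.50e-07). For both genes each shNT library on doxycycline lay below each one without it. HIST2H4A went from 90.9, 95.1 and 94.5 CPM to 80.3, 78.4 and 72.6 CPM, a smaller change of -0.28 ± 0.05 (adjusted p = 3.18e-04). HIST2H2BE went from 108, 112 and 116 CPM to 79.2, 78.5 and 79.1 CPM, a log2 change of -0.50. HIST2H2BC, at 46.4 and 41.6 CPM, did not pass (adjusted p = 0.142). By subfamily 8 of 13 H2B, 5 of 6 H3, 6 of 8 H4 and 3 of 8 H2A genes fell.

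**Figure D3:**
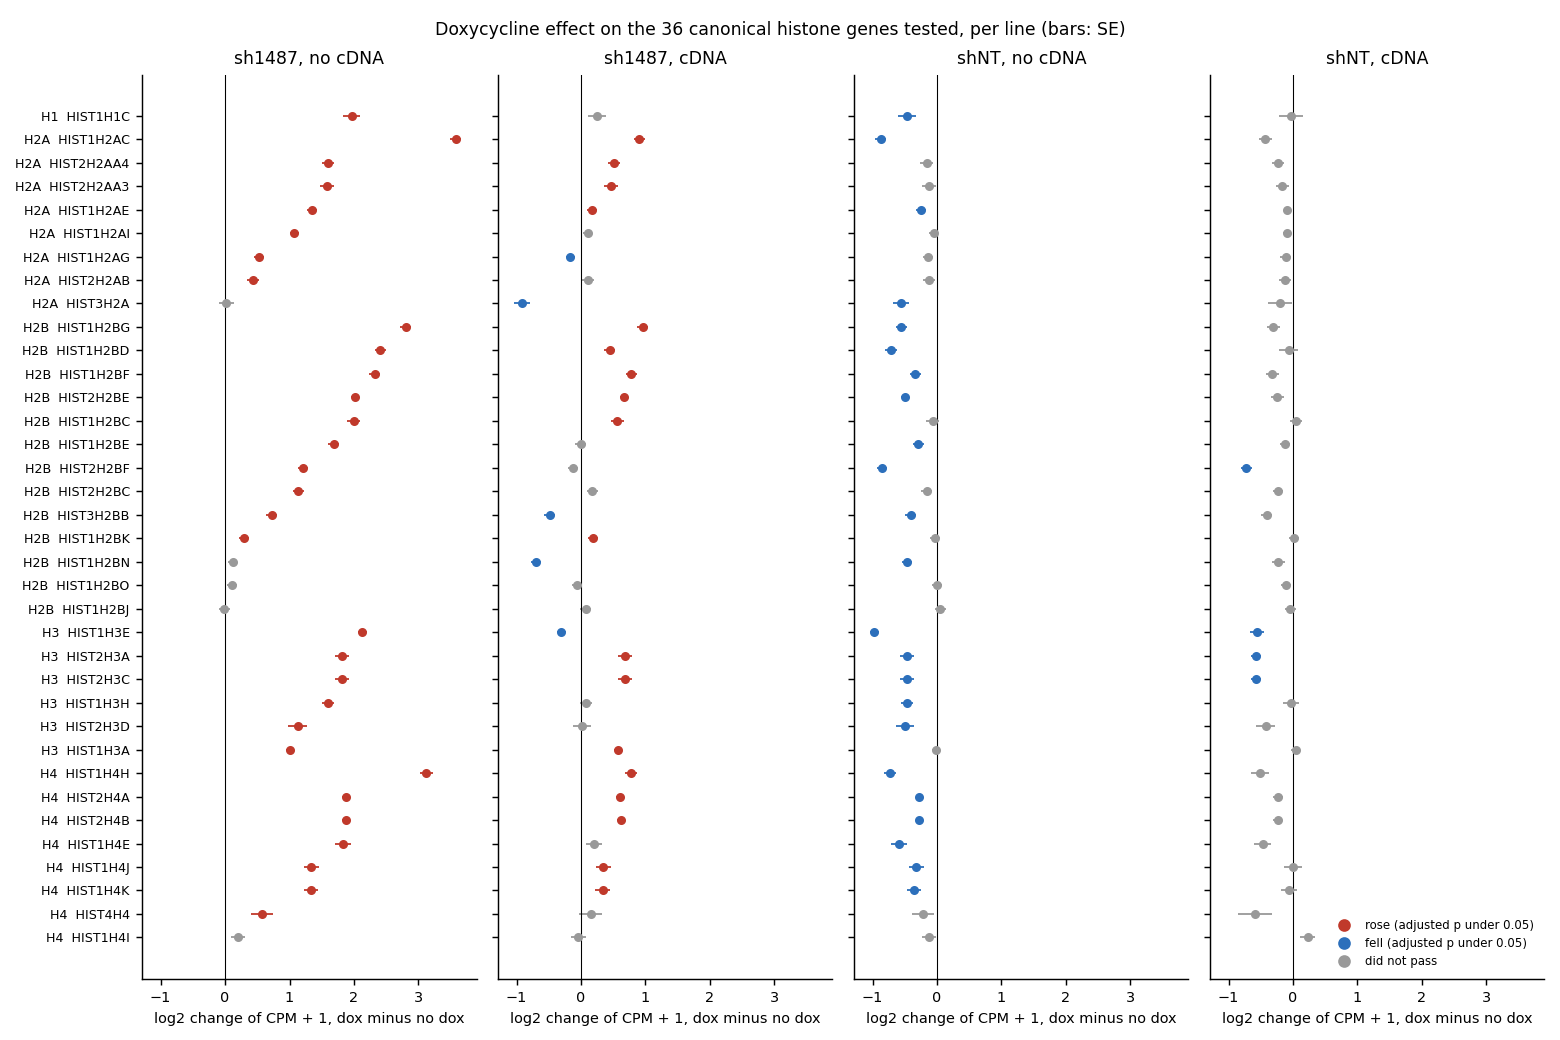
Log2 change of CPM + 1 with doxycycline for the 36 members tested, in sh1487 and shNT lines with and without cDNA (points: estimate, bars: SE, colour: call at adjusted p under 0.05). In sh1487 without cDNA 31 members rose, in shNT without cDNA 23 fell, and in sh1487 with cDNA 18 rose and 5 fell.

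The difference of the doxycycline effects, sh1487 minus shNT without cDNA, was tested as an interaction. It was positive and passed in 33 of 36 members, where 36.2% of all genes tested passed upward, with a median of 1.73 on the log2 scale against 0.03 over all genes. Among the 32 members passing the filter without the induced sh1487 libraries the count was 30. HIST1H2AC had the highest difference at 4.45 ± 0.13, followed by HIST1H4H at 3.86 ± 0.14. HIST3H2A and HIST1H2BN, which did not pass in sh1487 alone, had differences of 0.58 each, with falls in shNT of -0.56 and -0.47. The 3 members without a call were HIST1H2BJ at -0.07 ± 0.12, HIST1H2BO at 0.11 ± 0.10 and HIST1H4I at 0.33 ± 0.16. No member had a negative call, beside 34.4% of all genes tested, nor one at an unadjusted p under 0.05 or with edgeR or DESeq2.

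With the cDNA, doxycycline in sh1487 was followed by smaller changes. The summed level was 419 ± 3.85 CPM without and 553 ± 10.3 CPM with doxycycline, a ratio of 1.32. Here 18 members rose and 5 fell, against 28.3% and 31.3% of all genes tested, and the median log2 change was 0.19 against -0.02. Over the 32 members passing without the induced sh1487 libraries, 16 rose and 5 fell. On the scale of log2(CPM + 1), HIST1H2BG rose most. It went from 7.42, 7.31 and 7.32 CPM to 15, 16.3 and 14.3 CPM, a log2 change of 0.95 ± 0.09 (adjusted p = 3.80e-09). HIST1H2AC went from 15.6, 16.2 and 18.0 CPM to 33.0, 30.1 and 33.0 CPM, a log2 change of 0.91 ± 0.09 (adjusted p = 1.68e-08). Both genes' induced libraries stood above the uninduced ones and far below the 59.0 to 152 CPM of their induced libraries without cDNA. HIST1H3A, under 1 CPM in all of these libraries, had a higher ratio of means than HIST1H2BG, 4.34 against 2.07. HIST2H4A reached 121, 117 and 122 CPM from 78.3, 80.4 and 77.1 CPM, a log2 change of 0.60, and HIST2H2BE 99.6, 105 and 99.5 CPM from 63.6, 60.4 and 66.3 CPM, a change of 0.67. HIST2H3A reached 29.9, 37.8 and 30.7 CPM from 23.1, 21.1 and 16.5 CPM, a change of 0.68. HIST2H2BC, with 35.9, 42.5 and 37.5 CPM against 36.6, 36.4 and 29.6 CPM, overlapped between groups and did not pass (adjusted p = 0.0749).

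The 5 members that fell were HIST3H2A, HIST1H2BN, HIST3H2BB, HIST1H3E and HIST1H2AG. HIST3H2A went from 23.5, 22 and 23.6 CPM to 11.3, 11.5 and 12.4 CPM, a log2 change of -0.92 ± 0.12 (adjusted p = 1.25e-06). HIST1H2BN went from 8, 8.26 and 8.40 CPM to 4.62, 4.63 and 4.84 CPM, a log2 change of -0.69 ± 0.08 (adjusted p = 8.43e-08). Neither gene's groups overlapped, and neither gene had passed in sh1487 without cDNA. HIST1H3E fell by 0.31 on the log2 scale, from 5.99 to 4.65 CPM, whereas without cDNA it had risen by 2.13. HIST1H2AG, whose log2 change of -0.17 had an adjusted p of 0.0436, lost its call in 11 alternatives.

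The log2 change with doxycycline in sh1487 was more positive without than with the cDNA in 31 of 36 members by the interaction test, where 32.9% of all genes tested had a positive call. Over the 32 members passing without the induced sh1487 libraries the count was 28. The median difference was 1.14 against 0.05 over all genes, and HIST1H2AC (2.67 ± 0.13), HIST1H3E (2.44 ± 0.11) and HIST1H4H (2.35 ± 0.14) had the highest. For HIST3H2A and HIST1H2BN the positive difference came with no call without the cDNA and a fall with it. Members without a call were HIST1H2BJ, HIST1H2BK, HIST1H2BO, HIST1H4I and HIST4H4, and HIST1H2BK differed by 0.10 ± 0.11. No negative call was made, beside 27.2% of all genes tested, nor at an unadjusted p under 0.05 or with edgeR or DESeq2, and this comparison shares its sh1487 libraries without cDNA with the interaction against shNT.

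In shNT with cDNA the summed level was 472 ± 12 CPM without and 399.5 ± 37.3 CPM with doxycycline, a ratio of 0.846. Only HIST2H2BF, HIST2H3A, HIST2H3C and HIST1H3E fell, 4 of 36 members beside 2.14% of all genes tested (1.81% rose), and the median log2 change was -0.21. Those 4 genes also pass the filter without the induced sh1487 libraries. HIST2H3A and HIST2H3C, among them, are copies with nearly equal reads, so their falls are not separate results. HIST2H2BF went from 16.3 ± 1.19 to 9.48 ± 0.333 CPM (adjusted p = 0.0119), and HIST2H3A from 21.1, 22.7 and 20.8 CPM to 14.4, 14.7 and 13.4 CPM (adjusted p = 0.0185). No member rose, nor did any at an unadjusted p under 0.05 or with edgeR or DESeq2, and 16 were lower at an unadjusted p under 0.05. The count of falls was 0 without shNT cDNA dox replicate 1 or without any of the 3 undosed replicates in turn, where 0.108% to 0.578% of all genes tested were called in either direction, so a count of 0 is near the background. It was 6 without shNT cDNA dox replicate 3 (3.52% of all genes called), whose HIST3H2A value of 28.7 CPM stood above the 19.9 and 17.0 CPM of the other replicates.

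Before doxycycline, the sh1487 and shNT lines without cDNA already differed in single members, with 8 higher and 13 lower in sh1487, beside 32.1% and 34.1% of all genes tested. The 13 lower members are near that share and the 8 higher ones under it, so these counts do not set the members apart. Over the 32 members passing without the induced sh1487 libraries, 7 were higher and 11 lower. The median was 0.03 against 0.00 over all genes. HIST1H3E was 9.50 ± 0.287 CPM in shNT and 4.27 ± 0.259 CPM in sh1487, a log2 change of -1.0, and HIST2H2BE was 112 ± 4.44 and 65.1 ± 1.45 CPM, a change of -0.77. HIST1H2BE was higher in sh1487, at 2.31 ± 0.155 against 0.833 ± 0.136 CPM. All 7 HIST2 members called were lower in sh1487, and of the HIST1 members called 8 were higher and 4 lower, a split that was not tested. The 8 higher calls became 5 without sh1487 no-dox replicate 2, where HIST1H2AG, HIST1H4J and HIST1H4K lost their calls. These genes also lost them without shNT no-dox replicate 3, and the H4 genes without replicate 1 of either undosed line.

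The cDNA alone, in shNT without doxycycline, moved no member past the threshold with limma or edgeR, where 0.0651% of all genes tested rose and 0.383% fell. The median member log2 change was -0.07, with 6 members lower and none higher at an unadjusted p under 0.05, and DESeq2 called 2 lower. Same-numbered libraries of these 2 groups had correlations of 0.11 to 0.65 in their deviations from the group mean. Replicate 2 with cDNA and replicate 1 without it reached 0.53, so the numbers do not settle a pairing. With the replicate number as a block, HIST1H2BD (log2 change -0.44), HIST1H2AC (-0.40) and HIST1H3E (-0.28) fell, with adjusted p of 0.0115, 0.0232 and 0.0468. Under that block 10.9% of all genes tested were called in either direction, so 3 of 36 members is not above the background. With DESeq2 that share was 4.94%.

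Genes that act with canonical histones were described from lists drawn up with earlier results of these data known. For sh1487 without cDNA the share of all genes that rose was 37.4% and the share that fell 37.5%. The shares were 18.5% and 18.7% in shNT, and 28.3% and 31.3% in sh1487 with cDNA. All 24 genes of DNA replication fell (median -1.84 on the log2 scale), and PCNA, the sliding clamp of replication, went from 255 ± 13.1 to 71.0 ± 2.35 CPM. MCM3, a subunit of the replicative helicase, fell by 2.25 on the log2 scale, the helicase loader CDC6 by 2.23 and the thymidylate synthase gene TYMS by 2.16. In shNT the same 24 genes all rose, with a median of 0.42, and with the cDNA 5 rose and 10 fell in sh1487, near the shares of all genes there. Beside these counts, 31 of 36 canonical members rose in sh1487 without cDNA and 23 of 36 fell in shNT, and the others did not pass.

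Of 22 genes for histone RNA processing, 15 fell and 3 rose in sh1487 without cDNA, with a median of -0.46. SLBP, the stem-loop binding protein, went from 74.1 ± 2.08 to 50.9 ± 2.08 CPM, a log2 change of -0.54 (adjusted p = 4.70e-07). LSM11, of the U7 particle, went from 26.6 ± 0.768 to 8.53 ± 0.208 CPM, and CASP8AP2, a further factor of histone RNA processing, from 52.9 ± 1.74 to 25.5 ± 2.16 CPM. In shNT, SLBP rose from 97.7 ± 3.64 to 127 ± 10.2 CPM, and with the cDNA in sh1487 it rose from 65.9 ± 5.26 to 79.0 ± 3.33 CPM. LSM11 fell in sh1487 with cDNA as well, by 0.67 on the log2 scale.

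Of 7 transcription regulators of histone genes, 4 fell in sh1487 without cDNA. NPAT, the coactivator of histone gene clusters, went from 35.2 ± 1.85 to 26.9 ± 2.27 CPM, and CDK2, the kinase that phosphorylates it, from 86.0 ± 2.25 to 26.6 ± 0.415 CPM. Of 18 histone chaperones and carriers, 14 fell, including HAT1 (log2 change -2.02), which acetylates new H4, HJURP (-1.79), which carries CENPA, and CHAF1A (-1.74), which deposits H3 and H4 behind the replication fork. In shNT 8 chaperones rose and 1 fell, beside 18.5% and 18.7% of all genes tested.

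Among 12 replication-independent variant histones 4 rose and 6 fell in sh1487 without cDNA, close to the 37.4% and 37.5% of all genes. H3F3B, which encodes H3.3, rose there from 388 ± 20.6 to 861 ± 14.8 CPM. CENPA, the centromeric H3, went from 31.2 ± 0.526 to 11.4 ± 0.265 CPM, and H2AFZ, which encodes H2A.Z, from 192 ± 19.5 to 81.6 ± 2.82 CPM. In shNT H3F3B fell by 0.26 on the log2 scale and H2AFZ rose by 0.36, and with the cDNA in sh1487 H3F3B rose by 0.40 while H2AFZ had a change of 0.00 and did not pass.

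**Figure D4:**
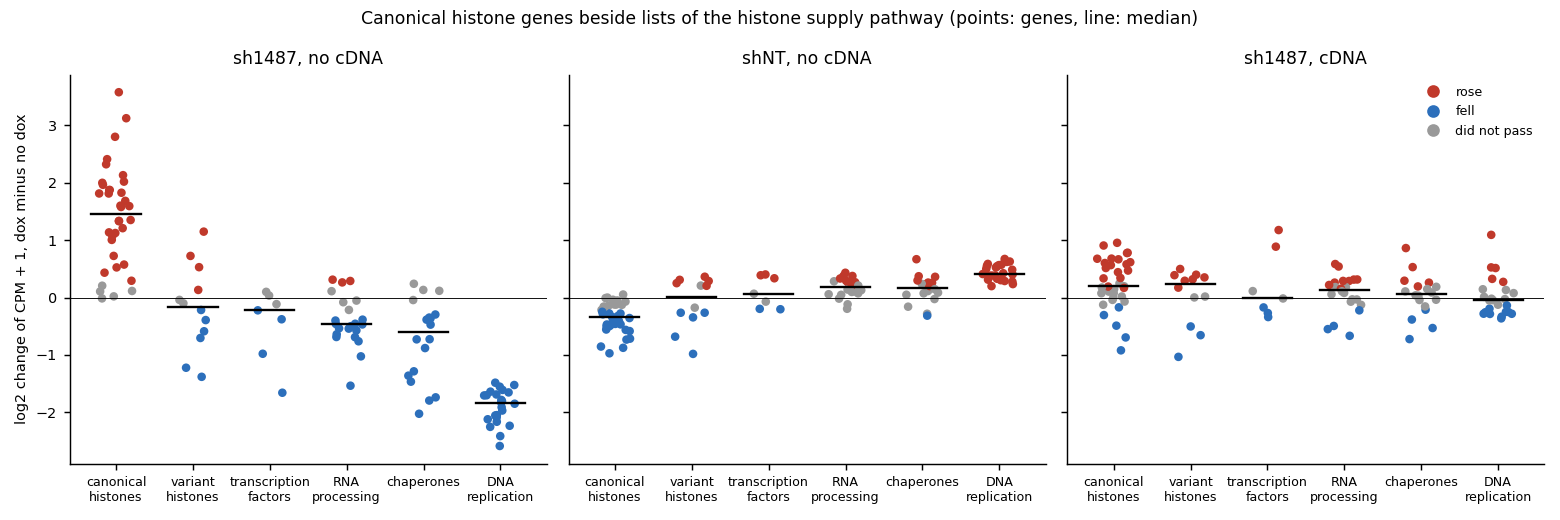
Log2 change of CPM + 1 with doxycycline for canonical histones and for variant histones, transcription factors, RNA processing genes, chaperones and replication genes, in 3 lines (points: genes, line: median, colour: call at adjusted p under 0.05). In sh1487 without cDNA the canonical members have a median of 1.46 and the replication genes one of -1.84, while in shNT the medians are -0.33 and 0.42.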

How the data were processed

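Tumour RNA was enriched for poly(A) RNA and sequenced with a TruSeq stranded mRNA kit on a NovaSeq, per the labels' protocols. Per the submitters' processing notes, Trimmomatic 0.39, STAR 2.7.7a, featureCounts, Subread 2.4.2 and edgeR 4.0.2 were used with GRCh38, and the annotation release is not given in the sources used here, nor how mouse reads were treated. The authors deposited 1 table of signal values in CPM, whose columns sum to between 933632 and 1137971 rather than to a fixed total, with a gene length column (other).

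Whole reads were recovered from the CPM steps (100% of values whole within 0.001), and edgeR on those reads called 10488 of 13832 genes for doxycycline in sh1487, against 10368 with limma. Genes that reached 1 CPM in 3 or more libraries entered the test on log2(CPM + 1), which understates changes of low genes, with limma 3.58.1 (R 4.3.3, trend) on 8 group means over 24 libraries. The doxycycline effect in shNT with cDNA and the cDNA effect in shNT were fitted on their 6 libraries alone, because the shNT groups with cDNA were known to vary more. The unit assumed beforehand was CPM with fixed sums, and the test was kept. P-values were adjusted by Benjamini-Hochberg over all genes tested. The fits were tested on simulated data in which far fewer genes changed than were called for doxycycline in sh1487. That run does not show how the fits behave where most genes change.

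Positions, lengths and transcripts come from GENCODE release 29, which gives 38 members the deposited length and lacks HIST2H2BC. Values per library were given for the 6 members with the highest mean, for the 3 largest rises and falls in sh1487, and 2 each in sh1487 with cDNA and in shNT. Other genes of the lists were named by smallest p, and further members, as those that stayed unmoved, after their values were seen. Members and lists were chosen with earlier results of these data known.

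Between shNT with and without cDNA, undosed, same-numbered libraries had correlations of 0.11 to 0.65, and a differently numbered pair reached 0.53. Calls with a replicate block were given there beside the main fit, which had no block. Alternatives were edgeR 4.0.16, DESeq2 1.42.0 and limma-voom on reads, other scalings, pseudocounts, filters and samples, a replicate block, and leaving out each library.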

Additional observations from a re-analysis of the deposited data

Results flagged for a closer look

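The doxycycline effect on canonical histone genes in sh1487 without cDNA was compared by an interaction test with that in shNT and with that in sh1487 with cDNA, and each member whose effects differed between lines past an adjusted p of 0.05 (limma) is given with the difference on the log2(CPM + 1) scale. All differences are positive, meaning a more positive change in sh1487 without cDNA.

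Against shNT without cDNA, 33 of the 36 members tested differed, while 36.2% of all genes tested had a positive call and 34.4% a negative one. HIST1H2AE, HIST2H2AB and HIST1H3A, in this list and the next, passed the filter only through the induced sh1487 libraries. The H2A genes with the larger differences were HIST1H2AC by 4.45, HIST2H2AA4 by 1.76, HIST2H2AA3 by 1.70 and HIST1H2AE by 1.60. The other H2A genes were HIST1H2AI by 1.12, HIST1H2AG by 0.67, HIST3H2A by 0.58 and HIST2H2AB by 0.55. The H2B genes with the larger differences were HIST1H2BG by 3.36, HIST1H2BD by 3.13, HIST1H2BF by 2.66, HIST2H2BE by 2.52, HIST1H2BC by 2.07 and HIST2H2BF by 2.06. The other H2B genes were HIST1H2BE by 1.98, HIST2H2BC by 1.29, HIST3H2BB by 1.13, HIST1H2BN by 0.58 and HIST1H2BK by 0.33. The H3 genes were HIST1H3E by 3.10, HIST2H3C by 2.27, HIST2H3A by 2.27, HIST1H3H by 2.07, HIST2H3D by 1.62 and HIST1H3A by 1.01. The H4 genes were HIST1H4H by 3.86, HIST1H4E by 2.41, HIST2H4B by 2.15, HIST2H4A by 2.15, HIST1H4K by 1.69, HIST1H4J by 1.66 and HIST4H4 by 0.79. The H1 gene was HIST1H1C by 2.43.

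Against sh1487 with cDNA, 31 of the 36 members tested differed, while 32.9% of all genes tested had a positive call and 27.2% a negative one. The H2A genes with larger values were HIST1H2AC by 2.67, HIST1H2AE by 1.18, HIST2H2AA3 by 1.11 and HIST2H2AA4 by 1.08. The remaining H2A genes were HIST1H2AI by 0.97, HIST3H2A by 0.94, HIST1H2AG by 0.70 and HIST2H2AB by 0.33. The H2B genes with larger values were HIST1H2BD by 1.97, HIST1H2BG by 1.85, HIST1H2BE by 1.69, HIST1H2BF by 1.54 and HIST1H2BC by 1.43. The remaining H2B genes were HIST2H2BE by 1.35, HIST2H2BF by 1.33, HIST3H2BB by 1.22, HIST2H2BC by 0.96 and HIST1H2BN by 0.81. The H3 genes were HIST1H3E by 2.44, HIST1H3H by 1.52, HIST2H3A by 1.14, HIST2H3C by 1.13, HIST2H3D by 1.11 and HIST1H3A by 0.43. The H4 genes were HIST1H4H by 2.35, HIST1H4E by 1.63, HIST2H4A by 1.27, HIST2H4B by 1.26, HIST1H4K by 1.00 and HIST1H4J by 0.99. The H1 gene was HIST1H1C by 1.72. Groups of 3 libraries are too small for a check of single outlying libraries.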

How the results depend on the processing

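No member that was called changed direction under any alternative run. All 31 rises in sh1487 without cDNA and all 33 positive differences from shNT kept their calls wherever the gene was tested, as did 29 of 31 in the comparison of sh1487 without and with cDNA, 18 of 23 in sh1487 with cDNA, 18 of 23 in shNT, 15 of 21 between the undosed lines and none of 4 in shNT with cDNA. Scaling shifted the median of all genes by more than 0.1 on the log2 scale for doxycycline in sh1487 (0.10 with library size alone, 0.13 with totals without mitochondrial genes) and for its difference from shNT (0.11 with totals without mitochondrial genes). In sh1487 the median of the members was then 1.57 and 1.59.

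With a mean of at least 5 CPM required, 21 members were tested, and the counts fell to 18 rises in sh1487, 15 falls in shNT, 20 positive differences from shNT, 19 positive differences from sh1487 with cDNA and 2 higher in undosed sh1487. For shNT with cDNA, the 4 falls became 9 with DESeq2, 17 with all libraries in the fit, and 18 with 1 rise under a replicate block, although its numbers do not pair the samples (lowest correlation 0.02). Calls over all genes tested also went from 3.95% to 13.1%, 31.9% and 43.9%. For the cDNA in undosed shNT, DESeq2 called 2 falls, all libraries in the fit 3 and the replicate block 3, with 4.94%, 5.46% and 10.9% of all genes called. The block changed no other count by more than 1.5 times. The cause was not tested.

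Leaving out single libraries gave 31 to 31 rises in sh1487, 19 to 23 falls in shNT, 33 to 34 and 30 to 31 positive differences, 15 to 18 rises and 4 to 5 falls in sh1487 with cDNA, 0 to 6 falls in shNT with cDNA, 5 to 8 higher and 10 to 13 lower members in undosed sh1487, and 0 to 1 falls for the cDNA in undosed shNT. Members under 1 CPM rest on few reads, down to 2 in a library for HIST1H3A, so their changes are the least precise.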
